A study of Mus musculus with 16 samples.

Results

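The 46 genes described here encode lysosomal enzymes, lysosomal membrane proteins, subunits of the lysosomal proton pump and proteins of autophagy. They were chosen by name, with earlier results of these data known. The scanner files carried 80 probes for them among 41174 probes that were not controls. A probe was used where some group had it well above background on each of its 4 arrays. By that rule 44 of the 46 genes could be tested among 17467 features (17466 gave a p-value in each comparison), and cathepsin K (Ctsk) and the pump subunit Atp6v0d2 could not. A member that is dim in one condition may have passed through the other, so counts below are over the 44 genes tested.

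The arrays measured RNA of adherent peritoneal cells from male mice of the strain BALB/cByJ-Lpin1fld/J. Control mice were heterozygotes, so they carry 1 fld allele, and mutant mice are labelled fld (fatty liver dystrophy). The fld mutation lies in Lpin1, which encodes lipin-1, a phosphatidate phosphatase that also acts on transcription. Cells of each genotype were left untreated or given lipopolysaccharide (LPS, a bacterial ligand of the receptor TLR4) at 100 ng/ml for 5 h in medium without serum, which made 4 groups of 4 arrays. The study compared these groups to learn how lipin-1 affects gene expression when TLR4 is stimulated. Ages were not among the labels, and the cells are those that adhered in culture rather than a sorted population.

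Lysosomes break down proteins, glycans and lipids that reach them by endocytosis, phagocytosis and autophagy. Their hydrolases work in an acidic lumen that a proton pump, the vacuolar ATPase, maintains, and lysosome-associated membrane proteins line the inner face of the limiting membrane. Autophagy encloses cytoplasm in a membrane decorated with lipid-linked proteins of the LC3 and GABARAP families and delivers it to the same compartment. Many lysosomal genes carry a short palindromic element near their start, bound by the transcription factor TFEB and its relatives. Macrophages digest engulfed material and are rich in lysosomes, and LPS is known to redirect their gene expression towards inflammatory products.

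One array stood apart from the rest. Within groups, arrays correlated with each other at 0.961 to 0.993 over the features, and 58.7% to 65.4% of spots were well above background. The lowest share and the lowest 75th percentile of intensity (189, against up to 627) belonged to replicate 4 of the LPS arrays labelled fld. Both arrays labelled fld with the number 4 also carried Lpin1 signal on 3 of the 4 Lpin1 probes, of which 1 read -5.34, -6.22, -5.66 and -1.36 on the untreated fld arrays and -4.996, -5.73, -4.58 and -2.61 on the LPS fld arrays, against -1.99 to -2.90 on the 8 control arrays. The brightest Lpin1 probe was well above background on all 16 arrays. It read -0.63 and -0.33 on the untreated and LPS fld arrays of number 4. On the other fld arrays it read -1.40 to -2.15, and on the control arrays -1.30 to -1.81. Genotype statements below therefore speak of arrays labelled fld. The LPS response in fld cells is given with LPS replicate 4 and, for counts and several genes, without it. Counts of LPS calls without both arrays of number 4 are in the part on processing. Each group was hybridised on a slide of its own, so the effect of a slide and that of a group cannot be told apart. If replicate arrays share an animal, the p-values measure technical spread.

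LPS lowered many lysosomal genes in both genotypes, hydrolases and membrane proteins among them. In control cells 24 of the 44 genes were lower with LPS, 0 were higher and 20 did not pass (limma, adjusted p under 0.05, two-sided), and the median log2 difference over the 44 was -0.55. In cells labelled fld 30 were lower, 0 were higher and 14 did not pass, with a median of -0.62. A log2 difference of -1 is a 2-fold fall. Over all features 15.2% were called lower in control cells and 18.2% in fld cells, 14.8% and 21.9% were called higher, and the medians were 0.03 and 0.06. Of the 44 genes 21 were lower in both genotypes, 3 in control cells alone, 9 in fld cells alone and 11 in neither, while 11.9% of all features were lower in both. A call in a single genotype is not a difference between genotypes, which is tested separately below. Of the 8 macrophage markers 7 fitted below 0 and 1 above 0 with LPS in each genotype. Their medians were -0.74 in control and -1.39 in fld cells. Of the 8, 1 was called lower in control cells and 4 in fld cells, beside 15.2% and 18.2% of all features. The part of these markers in the members' falls was not tested. In these bulk samples a lower level can mean fewer cells of a type or less RNA per cell, which cannot be told apart.

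**Figure D1:**
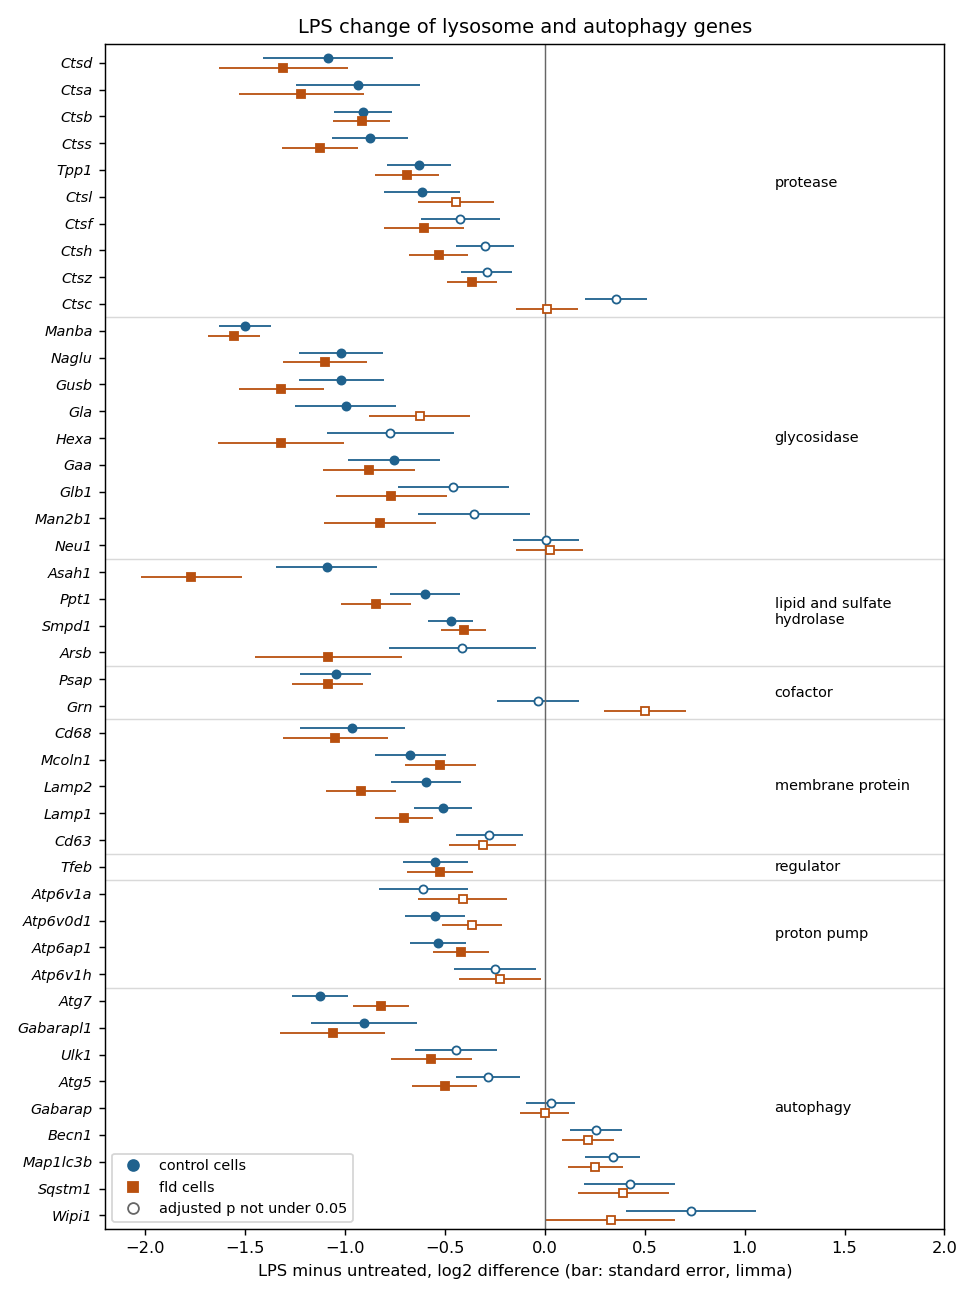
LPS change of the 44 genes tested, as the log2 difference of LPS minus untreated with its standard error, in control cells (circles) and cells labelled fld (squares), grouped by role. Filled symbols have an adjusted p under 0.05 (limma); most hydrolases and membrane proteins lie left of 0 in both genotypes, with Manba at -1.50 and -1.56, while several autophagy genes lie right of 0 with open symbols.

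The falls were seen array by array as well. The arrays of the LPS and untreated groups did not overlap, with LPS below, for 27 of the 44 genes in control cells and 25 in fld cells, against 16.4% and 16.5% of all features. Among the 23 hydrolases tested 14 were lower in control cells and 19 in fld cells (medians -0.63 and -0.85). Over all features 15.2% and 18.2% were lower. Setting each gene against its mean in untreated control cells and averaging the hydrolases gave 0.07, 0.13, 0.01 and -0.20 on the untreated control arrays and -0.54, -0.72, -0.74 and -0.63 on the LPS control arrays. The same mean was -0.11, 0.16, -0.08 and -0.11 on the untreated fld arrays and -0.58, -0.94, -0.52 and -1.53 on the LPS fld arrays. Every LPS array lay below every untreated array, and LPS replicate 4 labelled fld lay far below the rest.

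Autophagy genes showed no common direction. Their mean over 9 genes was -0.10, 0.10, 0.06 and -0.06 on untreated control arrays and 0.02, -0.07, -0.25 and -0.13 on LPS control arrays, and the ranges overlapped. On arrays labelled fld it was 0.04, 0.20, 0.08 and -0.21 without and 0.04, -0.24, -0.01 and -0.46 with LPS, which overlapped too. Of the 9 genes 2 were called lower in control cells and 4 in fld cells, beside 15.2% and 18.2% of all features. The medians were 0.03 and -0.00060, and the 2 called in control cells were among the 4. The 4 pump subunits lay between, with means of -0.49 on LPS control arrays and -0.57 on LPS fld arrays. The 5 membrane proteins were near the hydrolases at -0.60 and -0.77. These means are set against untreated control cells, and on untreated fld arrays they were -0.22 for the pump and -0.07 for the membrane proteins. The median LPS difference of the pump subunits was -0.54 in control and -0.39 in fld cells.

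**Figure D2:**
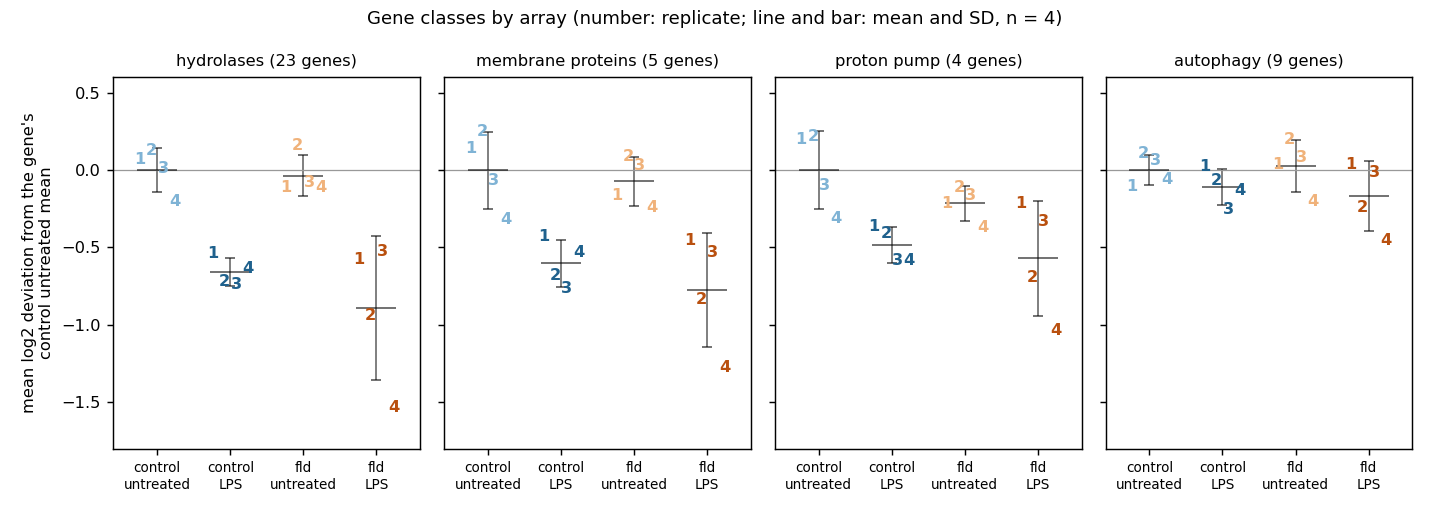
Mean log2 deviation from the control untreated mean, by array, for 23 hydrolases, 5 membrane proteins, 4 pump subunits and 9 autophagy genes; numbers are replicate numbers, and lines with bars are the group mean and SD (n = 4). The hydrolase mean lies between -0.54 and -0.74 on the LPS control arrays, and LPS replicate 4 labelled fld is lowest of its group in every panel.

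LPS replicate 4 labelled fld bears on the size of the fld response. On that array 37 of the 44 genes, and 21 of the 23 hydrolases, had the lowest value of their group. Its median difference from the mean of the other 3 arrays was -0.58 log2 units over the members and 0.05 over all features. Without it 23 of the 44 genes were lower in fld cells, 1 was higher, and the median was -0.47; over all features 16.6% were lower and 18.3% higher. The hydrolases then gave 16 of 23 lower with a median of -0.58, the pump 0 of 4, and autophagy 2 lower and 1 higher of 9. The calls lost without it were Atg5, Atp6ap1, Ctsf, Ctsz, Glb1, Mcoln1 and Ulk1, and the call gained was Wipi1. Untreated fld replicate 2 mattered as well. Without it the fld count was 20 lower, and 14.8% of all features were lower. The calls of Arsb, Atg5, Atp6ap1, Ctsf, Ctsz, Glb1, Man2b1, Mcoln1, Tfeb and Ulk1 were then lost. The part of LPS replicate 4's low signal and of its Lpin1 reading in these results was not tested beyond leaving it out.

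TFEB's element was looked for in the promoters. RefSeq promoters of assembly GRCm38.p6, from 250 bases before to 50 after the annotated start, were at hand for 40 of the 46 genes. The palindrome TCACGTGA, which reads alike on both strands and contains the E-box CACGTG, was found in 6 of the 40 (15.0%), against 1.12% of 27025 genes and 1.97% of the 11232 tested features with a promoter. CACGTG itself was in 35.0% of the members' promoters and 8.09% of all promoters. TGACNNNGC, the core of the antioxidant response element, searched on both strands, was in 20.0% and 14.0%. The stretches before the start that hold the palindrome are shown because their genes fell with LPS in several cases, with the palindrome in capitals, 5′ to 3′ on the gene's strand.
Ctsa, chr2:164833739-164833772, plus strand: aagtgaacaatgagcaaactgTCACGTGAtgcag
Ctsd, chr7:142387898-142387947, minus strand: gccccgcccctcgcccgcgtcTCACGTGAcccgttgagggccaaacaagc
Gla, chrX:134601205-134601254, minus strand: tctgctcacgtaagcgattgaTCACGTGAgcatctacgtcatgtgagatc
Gla, chrX:134601172-134601221, minus strand: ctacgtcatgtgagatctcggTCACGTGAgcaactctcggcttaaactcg
Mcoln1, chr8:3500452-3500501, plus strand: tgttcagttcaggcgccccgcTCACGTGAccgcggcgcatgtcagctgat
Atp6v1a, chr16:44139363-44139412, minus strand: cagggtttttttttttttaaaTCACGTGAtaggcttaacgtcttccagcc

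Measured from the annotated start to its first base, the palindrome stood at -13 in Ctsa, -99 in Ctsd, -228 and -195 in Gla, -46 in Mcoln1 and -132 in Atp6v1a. The sixth gene, Atp6v0d1, holds it across its start, and Ctsa holds a further copy after the start. Of the 6 genes with the palindrome 5 were lower with LPS in control cells and 3 in fld cells (medians -0.80 and -0.57). Of the 33 tested genes whose promoter lacked it, 17 and 24 were lower (medians -0.51 and -0.69). Falls were therefore seen with and without these letters. A match describes the sequence and not binding, and none of the 8 autophagy promoters held the palindrome.

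The proteases are mostly cathepsins, which cut proteins at acid pH. Cathepsin D (Ctsd, gene 13033), the main aspartic protease of lysosomes, is the second gene shown above with the palindrome. Ctsd had log2 levels, relative to each array's 75th percentile, of 7.28, 7.52, 7.10 and 6.90 on untreated control arrays and 6.41, 6.02, 5.86 and 6.16 on LPS control arrays. Ctsd read 6.76, 7.23, 6.81 and 6.77 on untreated and 6.22, 5.52, 6.27 and 4.32 on LPS arrays labelled fld. LPS arrays were below untreated ones in both genotypes without overlap, and the last fld array was lowest of the 16. The log2 difference was -1.09 (SE 0.33, adjusted p = 0.0199, limma) in control cells and -1.31 (SE 0.33, adjusted p = 0.00572, limma) in fld cells, or -0.89 without that array. In control cells the Ctsd call was lost without untreated control replicate 2 or LPS control replicate 3.

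Cathepsin A (Ctsa, gene 19025) is a carboxypeptidase that also protects neuraminidase and beta-galactosidase in a complex. Ctsa levels were 5.81, 6.04, 5.76 and 5.50 on untreated and 5.07, 4.73, 4.58 and 4.999 on LPS control arrays. Those labelled fld gave 5.42, 5.89, 5.59 and 5.39 untreated and 5.10, 4.24, 4.91 and 3.17 with LPS. Again no LPS array reached an untreated one of its genotype. The difference for Ctsa was -0.93 (SE 0.31, adjusted p = 0.034, limma) in control and -1.22 (SE 0.31, adjusted p = 0.00676, limma) in fld cells. The control call of Ctsa was lost with normexp background correction, in the value table, without the filter on dim probes, and without untreated control replicate 1, 2 or 3 or LPS control replicate 2, 3 or 4, where its difference was -0.85 to -1.44 and its adjusted p 0.0511 to 0.0876 (limma). All 3 kept probes of Ctsa were lower in both genotypes, with differences from -0.93 to -2.17 in control cells.

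Among the cysteine cathepsins, Ctsb (-0.91 and -0.92 in control and fld cells) and Ctss (-0.88 and -1.12) fell in both genotypes. So did the tripeptidyl peptidase Tpp1 (-0.63 and -0.69). Both Tpp1 calls were lost with normexp background correction (adjusted p = 0.0716 and 0.0513, limma). Ctsl was called lower in control cells (-0.61, adjusted p = 0.0242, limma) and not in fld cells (-0.44, adjusted p = 0.0752), and the control call was lost without untreated control replicate 1 or 2 or LPS control replicate 3. Ctsf, Ctsh and Ctsz were called in fld cells with differences of -0.60, -0.53 and -0.37, against -0.42, -0.30 and -0.29 in control cells. Without LPS replicate 4 labelled fld the fld values of Ctsf and Ctsz were -0.44 and -0.24, with no call; the fld call of Ctsz was also lost without untreated fld replicate 1, 2 or 3, and that of Ctsf without untreated or LPS fld replicate 2. Ctsc, the dipeptidyl peptidase that activates serine proteases of granules, stood apart with 0.35 (adjusted p = 0.101) and 0.01 (adjusted p = 0.959, limma), neither of which passed. In all 6 of the 10 proteases tested were lower in control cells and 8 in fld cells, beside 15.2% and 18.2% of all features.

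Cathepsin K, a collagen-cutting protease best known from osteoclasts, was too dim for the test. In each genotype 3 of 4 untreated arrays and 0 of 4 LPS arrays had its probe well above background. Ctsk read -3.37, -2.87, -3.16 and -4.94 on untreated and -6.97, -6.77, -7.00 and -7.10 on LPS control arrays. On arrays labelled fld Ctsk read -4.34, -3.93, -3.71 and -4.62 without and -5.04, -6.34, -6.18 and -5.85 with LPS. Set against the lowest signal that counts as well above background, Ctsk was at least 2.70-fold lower with LPS in control cells and at least 1.23-fold lower in fld cells, with no test. The bound uses the untreated mean over all 4 arrays and, on each LPS array, the higher of that lowest signal and the probe's own value.

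Glycosidases remove sugars from glycoproteins, glycolipids and glycosaminoglycans. Of 9 glycosidases 5 were lower in control cells and 7 in fld cells, beside 15.2% and 18.2% of all features. Beta-mannosidase (Manba, gene 110173) had the lowest adjusted p of the 44 genes in both LPS comparisons. Manba levels were 0.70, 0.84, 0.84 and 0.54 on untreated and -0.81, -0.83, -0.58 and -0.86 on LPS control arrays. The fld arrays read 0.40, 0.79, 0.27 and 0.67 untreated and -1.14, -1.10, -0.77 and -1.10 with LPS. Manba was above the 75th percentile of intensity on the 8 untreated arrays and below it on the 8 LPS arrays. It fell by 1.50 (SE 0.13, adjusted p = 1.2e-06, limma) in control and by 1.56 (SE 0.13, adjusted p = 7.89e-07, limma) in fld cells on the log2 scale, and its second probe gave -1.53 and -1.67. Without LPS replicate 4 labelled fld the fall was -1.53.

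Naglu, an enzyme of heparan sulfate breakdown, fell in both genotypes. Its levels were 2.77, 2.93, 2.75 and 2.67 on untreated and 2.02, 1.58, 1.67 and 1.78 on LPS control arrays. Labelled fld, Naglu gave 2.41, 2.96, 2.46 and 2.44 untreated and 1.83, 1.30, 1.93 and 0.79 with LPS. The groups did not overlap in either genotype. Naglu differed by -1.02 (SE 0.21, adjusted p = 0.0019, limma) and -1.10 (SE 0.21, adjusted p = 0.000968, limma) in control and fld cells.

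Hexa, the alpha subunit of the beta-hexosaminidase that clears GM2 ganglioside, was called in fld cells alone. Hexa levels were 5.99, 5.99, 6.07 and 5.73 without and 5.41, 4.94, 5.16 and 5.18 with LPS on control arrays. On arrays labelled fld Hexa read 5.72, 6.12, 5.73 and 5.85 without and 5.21, 4.45, 5.21 and 3.26 with LPS. LPS arrays were below untreated ones in both genotypes without overlap, although the control difference of -0.77 did not pass (SE 0.32, adjusted p = 0.0804, limma). The fld difference was -1.32 (adjusted p = 0.00457, limma), or -0.89 without LPS replicate 4. With that array left out of the fit the control difference of Hexa passed as well.

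Beta-glucuronidase (Gusb) differed by -1.02 and -1.32 and acid alpha-glucosidase (Gaa), which degrades glycogen, by -0.75 and -0.88, and these were calls in both genotypes, although that of Gaa in control cells was lost without untreated control replicate 3 or LPS control replicate 4. Alpha-galactosidase A (Gla), with copies of the palindrome shown above, was lower in control cells (-0.997, adjusted p = 0.00758, limma) and did not pass in fld cells (-0.63, adjusted p = 0.0599). Lysosomal alpha-mannosidase (Man2b1) was called in fld cells (-0.82) and not in control cells (-0.35). Its fld difference was -0.43 without LPS replicate 4 labelled fld, where the control difference of Man2b1 passed too (adjusted p = 0.0435, limma), and the fld call was lost without untreated fld replicate 1 or 2. Beta-galactosidase (Glb1) read 3.88, 4.14, 4.10 and 3.72 on untreated and 3.81, 3.25, 3.44 and 3.51 on LPS control arrays. For fld the Glb1 levels were 3.31, 3.78, 3.51 and 3.71 untreated and 3.46, 2.65, 3.33 and 1.80 with LPS, and the groups overlapped in both genotypes. Glb1 was called in fld cells through this brightest probe (-0.77, adjusted p = 0.0388, limma) and not in control cells (-0.46), while its other probes gave -0.79 and -0.10 in fld cells without a call. The fld value of Glb1 was -0.43 without LPS replicate 4, and its call was lost without that array, LPS replicate 2, or untreated replicate 2, 3 or 4 labelled fld.

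The sialidase Neu1 lay at 4.70, 4.53, 4.66 and 4.24 and 4.60, 4.39, 4.58 and 4.60 on untreated and LPS control arrays. Labelled fld, Neu1 gave 4.39, 4.63, 4.59 and 4.29 and 4.79, 4.32, 4.84 and 4.04. Its groups overlapped in both genotypes, with differences of 0.01 (SE 0.17) and 0.02 (SE 0.17), so it was an exception among the glycosidases.

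Lipid and sulfate hydrolases were lower in 3 of 4 cases in control cells and 4 of 4 in fld cells. Over all features 15.2% and 18.2% were lower. Acid ceramidase (Asah1, gene 11886), which splits ceramide into sphingosine and fatty acid, had the largest fall of the 44 genes in fld cells. Asah1 levels were 1.58, 1.96, 1.74 and 1.51 on untreated and 0.82, 0.45, 0.68 and 0.47 on LPS control arrays. The fld arrays read 1.63, 2.07, 1.57 and 1.59 untreated and 0.52, -0.21, 0.42 and -0.95 with LPS. On LPS replicates 2 and 4 labelled fld it dropped below the array's 75th percentile. The differences were -1.09 (SE 0.25, adjusted p = 0.00429, limma) and -1.77 (SE 0.25, adjusted p = 9.97e-05, limma), and -1.47 in fld cells without LPS replicate 4.

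Ppt1, a thioesterase that removes palmitate from proteins, had levels of 2.998, 2.77, 2.89 and 2.71 on untreated and 2.28, 2.11, 2.40 and 2.19 on LPS control arrays. Labelled fld, Ppt1 read 2.49, 2.98, 2.52 and 2.98 untreated and 1.99, 1.80, 2.36 and 1.42 with LPS. No overlap was seen in either genotype, and the differences were -0.60 (adjusted p = 0.0177, limma) and -0.85 (adjusted p = 0.00174, limma). The control call of Ppt1 was lost without LPS control replicate 2, with normexp background correction and in the value table. Taking the mean of its probes ended the calls in both genotypes, with an adjusted p of 0.121 in fld cells (limma). A second Ppt1 probe gave -0.61 and -1.03, called in fld cells, and the dimmest gave -0.30 and -0.57 with no call. Acid sphingomyelinase (Smpd1) differed by -0.47 and -0.41, with calls in both genotypes. Both Smpd1 calls were lost with normexp background correction, and that in fld cells also without both fld arrays of number 4. Arylsulfatase B (Arsb) was called in fld cells (-1.08, adjusted p = 0.0303) but its probe was not well above background on LPS replicate 4, without which the difference was -0.58. The fld call of Arsb was lost without untreated fld replicate 1, 2 or 3.

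**Figure D3:**
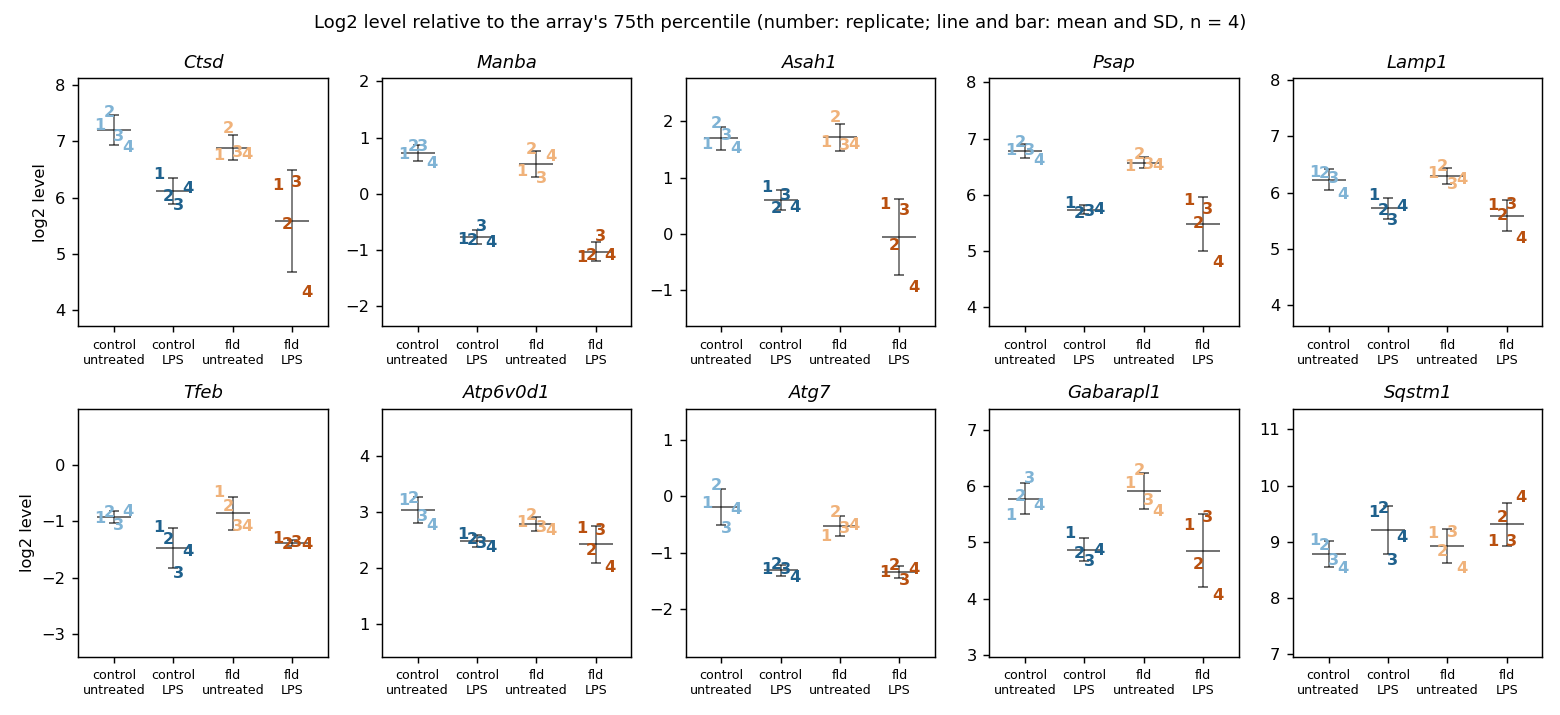
Log2 level relative to the array's 75th percentile for 10 genes on the 16 arrays; numbers are replicate numbers, lines with bars are the mean and SD (n = 4), and each panel spans the same height. Manba and Psap show LPS arrays below untreated arrays without overlap in both genotypes, and LPS replicate 4 labelled fld is lowest for Ctsd, Asah1 and Gabarapl1 and highest in its group for Sqstm1.

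Hydrolases need small proteins that present their substrates. Prosaposin (Psap, gene 19156) is cut into saposins, which lift sphingolipids out of membranes for the enzymes. Psap levels were 6.79, 6.94, 6.78 and 6.62 on untreated and 5.84, 5.66, 5.70 and 5.74 on LPS control arrays. With the fld label Psap gave 6.51, 6.71, 6.55 and 6.52 untreated and 5.90, 5.49, 5.74 and 4.80 with LPS. The groups were far apart in both genotypes, and the differences were -1.05 (SE 0.18, adjusted p = 0.000433, limma) and -1.09 (SE 0.18, adjusted p = 0.000298, limma). A second Psap probe was likewise lower, by -0.92 and -1.12.

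Progranulin (Grn, gene 14824), a secreted and lysosomal glycoprotein that binds prosaposin, depended on the probe. Its brighter probe, at 102542316 to 102542375 of chromosome 11 in the scanner files (genome build not given in the sources used here), read 9.30, 9.04, 8.95 and 8.88 on untreated and 9.11, 9.55, 8.67 and 8.70 on LPS control arrays. That probe read 9.06, 8.93, 8.64 and 9.12 untreated and 8.99, 9.62, 9.36 and 9.78 with LPS on arrays labelled fld, and the groups overlapped in both genotypes. Its differences were -0.04 (adjusted p = 0.92) and 0.50 (adjusted p = 0.0626, limma). The dimmer probe, at 102545417 to 102545476, gave -1.08 (adjusted p = 0.00779, limma over all kept probes) and -1.55 (adjusted p = 0.000593, limma over all kept probes), with every LPS array below the untreated arrays of its genotype. Both probes carry the same transcript accession, and the mean of both gave a call of -0.52 in fld cells. No direction is therefore given for Grn.

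**Figure D4:**
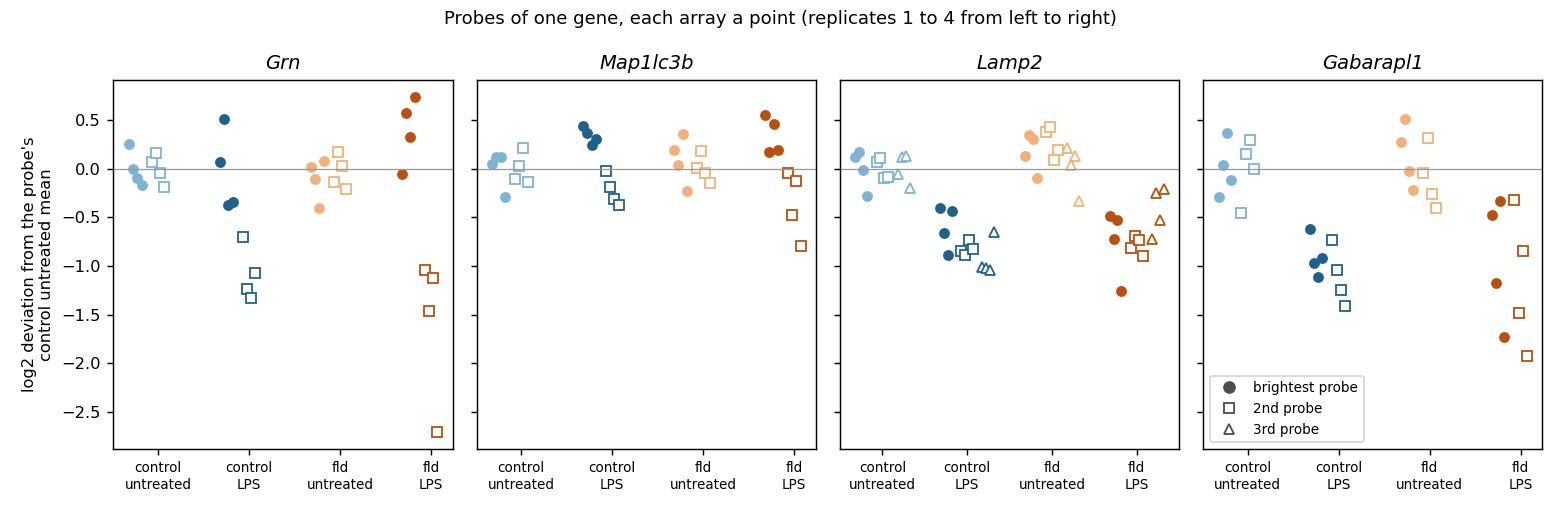
Log2 deviation from each probe's control untreated mean for the probes of Grn, Map1lc3b, Lamp2 and Gabarapl1, with each array as a point. The probes of Grn part with LPS (-0.04 and -1.08 in control cells), those of Map1lc3b lie on opposite sides of 0, and those of Lamp2 and Gabarapl1 lie below 0 in both LPS groups.

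Membrane proteins were lower with LPS in 4 of 5 cases in each genotype, beside 15.2% of all features in control and 18.2% in fld cells. Lamp1 (gene 16783), a main glycoprotein of the limiting membrane, had levels of 6.35, 6.35, 6.26 and 5.96 on untreated and 5.95, 5.68, 5.50 and 5.76 on LPS control arrays. Arrays labelled fld gave Lamp1 levels of 6.34, 6.47, 6.14 and 6.23 untreated and 5.77, 5.60, 5.79 and 5.19 with LPS. The lowest untreated array was still above the highest LPS array in each genotype, in control cells only narrowly. Lamp1 differed by -0.51 (SE 0.15, adjusted p = 0.0154, limma) and -0.71 (SE 0.15, adjusted p = 0.00165, limma). The control call of Lamp1 was lost with normexp background correction, with extreme local backgrounds capped or not, and in the value table. The fld call of Lamp1 was lost with normexp without that cap (adjusted p = 0.0738, limma).

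Lamp2, whose splice forms include a receptor of chaperone-mediated autophagy, had 3 probes. The brightest read 4.66, 4.72, 4.53 and 4.27 on untreated and 4.14, 3.89, 3.66 and 4.11 on LPS control arrays. With the fld label it read 4.67, 4.89, 4.85 and 4.45 untreated and 4.06, 3.82, 4.02 and 3.28 with LPS. Its groups did not overlap, and it differed by -0.59 (adjusted p = 0.018, limma) and -0.92 (adjusted p = 0.000933, limma). The other probes, which carry other transcript accessions, gave -0.82 and -0.93 in control cells and -1.05 and -0.44 in fld cells, each with a call. The control call of the brightest Lamp2 probe was lost without untreated control replicate 2 or LPS control replicate 3 and in the value table.

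Cd68, a macrophage member of the same family, was lower in both genotypes. Cd68 levels were 4.97, 5.24, 4.42 and 4.30 on untreated and 3.97, 3.64, 3.60 and 3.87 on LPS control arrays. Labelled fld, Cd68 stood at 4.07, 4.47, 4.42 and 4.31 untreated and 3.85, 3.13, 3.61 and 2.48 with LPS. Every LPS array was below the untreated arrays of its genotype, and the differences were -0.96 (adjusted p = 0.0113, limma) and -1.05 (adjusted p = 0.00576, limma). Mcoln1, the cation channel that releases lysosomal calcium, read 3.62, 3.57, 3.54 and 3.12 on untreated and 2.89, 2.74, 2.74 and 2.79 on LPS control arrays. For fld its levels were 3.23, 3.46, 3.25 and 3.06 untreated and 3.09, 2.63, 3.03 and 2.16 with LPS. The control groups were apart and the fld groups overlapped.

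The Mcoln1 differences were -0.67 (adjusted p = 0.00962, limma) and -0.52 (adjusted p = 0.03, limma). A dimmer Mcoln1 probe gave -0.81 in control cells, with a call, and -0.11 in fld cells, without one. Leaving out LPS replicate 4 moved the fld value to -0.33 (adjusted p = 0.0858, limma), and the fld call of Mcoln1 was also lost without LPS fld replicate 2 or untreated fld replicate 1, 2 or 3. The tetraspanin Cd63 did not pass in either genotype, with -0.28 and -0.31.

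Tfeb (gene 21425, named Tcfeb in the files), the factor that binds the palindrome, was called lower with LPS, a call that did not hold under every alternative. Tfeb levels were -0.95, -0.84, -1.07 and -0.83 on untreated and -1.10, -1.31, -1.92 and -1.54 on LPS control arrays. Those of fld were -0.49, -0.74, -1.09 and -1.09 untreated and -1.30, -1.42, -1.38 and -1.41 with LPS. The groups did not overlap in either genotype, and LPS arrays labelled fld agreed within an SD of 0.05. The differences were -0.55 (SE 0.16, adjusted p = 0.0203, limma) and -0.52 (SE 0.16, adjusted p = 0.0205, limma). The control call was lost with normexp background correction (-0.11, adjusted p = 0.771, limma), with extreme local backgrounds capped (adjusted p = 0.0927), and without untreated control replicate 2 or 4 or LPS control replicate 3 or 4. The fld call of Tfeb was lost with normexp (-0.14, adjusted p = 0.707, limma), with capped backgrounds (-0.31, adjusted p = 0.0976), and without untreated fld replicate 1 or 2. Array levels say nothing of where the protein is, which is its main known point of control.

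Of 4 subunits of the proton pump 2 were lower in control cells and 1 in fld cells, beside 15.2% and 18.2% of all features. Atp6v0d1, part of the membrane sector, read 3.21, 3.23, 2.91 and 2.76 on untreated and 2.60, 2.51, 2.43 and 2.36 on LPS control arrays. With fld the levels of Atp6v0d1 were 2.81, 2.94, 2.71 and 2.67 untreated and 2.70, 2.30, 2.66 and 2.02 with LPS. The control groups did not overlap and the fld groups did. The control difference was a call at -0.55 (adjusted p = 0.012, limma) and the fld difference was not at -0.36 (adjusted p = 0.066).

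Atp6ap1, an accessory protein needed for assembly of the pump, read 2.81, 2.99, 2.77 and 2.79 on untreated and 2.27, 2.39, 2.39 and 2.16 on LPS control arrays. For fld Atp6ap1 stood at 2.54, 2.83, 2.45 and 2.57 untreated and 2.48, 2.14, 2.34 and 1.75 with LPS. The control groups were apart, whereas LPS replicate 1 labelled fld lay within the untreated fld range. Its differences were -0.54 (adjusted p = 0.00909, limma) and -0.42 (adjusted p = 0.0278, limma), the second lost without LPS replicate 4 (-0.27, adjusted p = 0.0796) and without untreated or LPS replicate 2 labelled fld. In the value table the control call of Atp6ap1 was lost.

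The catalytic subunit Atp6v1a and the regulatory subunit Atp6v1h form part of the cytosolic sector. Atp6v1a read 2.23, 2.24, 1.89 and 1.52 on untreated and 1.53, 1.37, 1.23 and 1.32 on LPS control arrays, where the groups nearly parted. Labelled fld, Atp6v1a gave 1.69, 1.77, 1.92 and 1.51 untreated and 1.78, 1.18, 1.67 and 0.62 with LPS, with overlap. Its control difference of -0.61 just missed the threshold (adjusted p = 0.0504, limma) and the fld difference was -0.41 (adjusted p = 0.148). Atp6v1h did not pass, with -0.25 (SE 0.21) and -0.22 (SE 0.21), and a dim probe of it gave 0.08 in fld cells.

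Atp6v1h levels were 2.87, 2.76, 2.36 and 2.02 on untreated and 2.48, 2.44, 1.95 and 2.15 on LPS control arrays, and 2.43, 2.36, 2.62 and 2.10 and 2.53, 1.94, 2.34 and 1.80 on those labelled fld. These ranges overlapped throughout. Atp6v0d2, a subunit form known from osteoclasts, was not well above background on any of the 16 arrays, where its signals lay between -7.46 and -5.84. No fold is given for it.

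The autophagy genes divided. Atg7 (gene 74244), the activating enzyme of both conjugation systems of autophagy, read -0.13, 0.19, -0.58 and -0.23 on untreated and -1.30, -1.21, -1.30 and -1.44 on LPS control arrays. Atg7 on arrays labelled fld was at -0.71, -0.29, -0.58 and -0.52 untreated and -1.35, -1.23, -1.49 and -1.30 with LPS. LPS arrays stayed close together, below the untreated arrays in both genotypes. The fall was -1.13 (SE 0.14, adjusted p = 3.02e-05, limma) and -0.82 (SE 0.14, adjusted p = 0.000412, limma), and -0.83 without LPS replicate 4 labelled fld. Both Atg7 calls were lost with normexp background correction (adjusted p = 0.23 in control and 0.459 in fld cells, limma). A dimmer Atg7 probe gave -0.72 with a call in control cells and -0.39 without one in fld cells.

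Gabarapl1, a lipid-linked protein of the autophagosome membrane, read 5.49, 5.82, 6.14 and 5.66 on untreated and 5.16, 4.81, 4.67 and 4.86 on LPS control arrays. Its fld levels were 6.05, 6.29, 5.75 and 5.56 untreated and 5.30, 4.60, 5.45 and 4.05 with LPS. No overlap was seen in either genotype. Gabarapl1 differed by -0.90 (SE 0.26, adjusted p = 0.0174, limma) and -1.06 (SE 0.26, adjusted p = 0.0057, limma), and its second probe gave -1.11 and -1.05, both calls. Leaving out untreated control replicate 3 ended the control call of the first Gabarapl1 probe. Its relative Gabarap read 3.37, 3.50, 3.08 and 3.25 and 3.46, 3.43, 3.22 and 3.22 on untreated and LPS control arrays. On fld arrays Gabarap read 3.32, 3.41, 3.25 and 3.23 and 3.53, 3.24, 3.44 and 3.01. These overlapped, with differences of 0.03 (SE 0.12) and -0.00 (SE 0.12), so members of one protein family gave unlike values.

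Map1lc3b, the LC3 protein used as the standard marker of autophagosomes, read 4.05, 4.12, 4.12 and 3.71 on untreated and 4.44, 4.37, 4.25 and 4.31 on LPS control arrays. The fld arrays gave 4.19, 4.04, 4.36 and 3.77 untreated and 4.55, 4.17, 4.46 and 4.20 with LPS. The brighter probe was higher on every LPS control array than on any untreated one, yet the difference did not pass. It was 0.34 (adjusted p = 0.0771, limma) in control and 0.25 (adjusted p = 0.153, limma) in fld cells. The second probe of Map1lc3b gave -0.22 and -0.36 without a call, so the probes have opposite signs. With both fld arrays of number 4 left out of the fit the control difference of the brighter Map1lc3b probe passed (adjusted p = 0.0454, limma).

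Sqstm1 (p62) is the receptor that links ubiquitinated cargo to LC3. Sqstm1 levels were 9.03, 8.93, 8.67 and 8.53 on untreated and 9.52, 9.59, 8.67 and 9.08 on LPS control arrays. On fld arrays Sqstm1 was at 9.15, 8.82, 9.17 and 8.53 untreated and 9.01, 9.44, 9.01 and 9.79 with LPS. The groups overlapped in both genotypes. The differences of 0.43 (SE 0.23, adjusted p = 0.18, limma) and 0.39 (SE 0.23, adjusted p = 0.179, limma) did not pass.

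Of the rest, Atg5, the conjugation partner of Atg12, and Ulk1, the kinase that starts autophagy, were called lower in fld cells (-0.50 and -0.57) and not in control cells (-0.29 and -0.44). Both fld calls ended without LPS replicate 4 and without untreated or LPS replicate 2 labelled fld; that of Ulk1 also ended without untreated replicate 1 or 3 or LPS replicate 1. Becn1, a subunit of the lipid kinase complex of autophagy, gave 0.26 and 0.22, which did not pass. Wipi1, which binds the lipid that complex makes, read -0.99, -0.41, -0.07 and -0.32 on untreated and 0.62, 0.21, 0.00 and 0.31 on LPS control arrays. On arrays labelled fld Wipi1 read -0.53, -0.15, -0.45 and -0.87 untreated and 0.54, -0.32, 0.38 and -1.28 with LPS. The control groups did not overlap, but the difference of 0.73 (SE 0.32, adjusted p = 0.104, limma) did not pass, and the fld difference was 0.33. Without LPS replicate 4 labelled fld Wipi1 was higher in fld cells by 0.70 (adjusted p = 0.0401, limma), and then passed in control cells too.

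The comparison of fld with control cells gave no call among the 44 genes, without or with LPS, by limma. Leaving out any 1 array also gave 0 calls among them without LPS. Without LPS the fld minus control differences ran from -0.42 (Cd68) to 0.47 (Arsb), and 2 genes, Ctsc and Atg7, had an unadjusted p under 0.05, as had 18.6% of all features. With LPS they ran from -0.69 (Glb1) to 0.43 (Grn), and 2 genes, Glb1 and Asah1, had an unadjusted p under 0.05, as had 26.7% of all features. Across all features 5.26% were called without and 17.1% with LPS. Standard errors of the members were 0.11 to 0.37 log2 units (median 0.18). A p above the threshold does not show equal levels.

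Ctsc without LPS and Asah1 and Glb1 with LPS came nearest to a call. Ctsc was higher in untreated fld cells by 0.42 (SE 0.16, adjusted p = 0.141, limma), with 4.17, 4.10, 4.53 and 4.58 on control and 4.90, 5.04, 4.52 and 4.61 on fld arrays, which overlapped. Asah1 differed by -0.66 with LPS (SE 0.25, adjusted p = 0.096, limma) and Glb1 by -0.69 (SE 0.28, adjusted p = 0.112, limma). Leaving out fld LPS replicate 1 made calls of Asah1 and Glb1, leaving out fld LPS replicate 3 made calls of these and Ppt1, and leaving out control LPS replicate 2 made a call of Grn, higher in fld. Gla was the single gene of the 44 whose LPS arrays did not overlap between genotypes. It read 0.61, 0.57, 0.28 and 0.53 in control and 0.76, 0.91, 0.9998 and 0.72 in fld cells. The difference was 0.35 (adjusted p = 0.434, limma). Over all 17467 features 3053 were higher and 420 lower in fld with LPS without overlap.

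This genotype comparison depends on how arrays are scaled. In the deposited value table, where each array is divided by its median, 22 of the 44 genes and 37.9% of all features were lower in fld with LPS, and the median over all features was itself -0.38. At the 75th percentile the all-feature median was 0.02 and the member median -0.11. Of all called features 94.7% were higher in fld with LPS at the 75th percentile, 74.4% after quantile normalization and 23.3% in the value table. The hydrolases called lower with LPS kept their sign after quantile normalization and in the value table, where the control calls of Ctsa, Gaa and Ppt1 were lost.

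Whether LPS acted differently in the 2 genotypes was tested as an interaction, which gave 0 calls among the 44 genes (limma), 0 genes with an unadjusted p under 0.05 (9.44% of all features), and 0% of all features called. The values ran from -0.68 (Asah1, SE 0.36, adjusted p = 0.596) to 0.54 (Grn), with a median SE of 0.26. Without both fld arrays of number 4 the interaction again gave 0 calls over all features. The larger fld count of LPS calls, 30 against 24, is thus no tested difference.

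Other genes of the pathway, listed by function with earlier results of these data known, were counted in the same way. Of 134 such genes 131 were tested, and 54 were lower and 10 higher with LPS in control cells, 65 and 9 in fld cells. Over all features 15.2% were lower and 14.8% higher in control cells, 18.2% and 21.9% in fld cells. The same shares apply to the counts by function that follow. Among 33 further hydrolases and cofactors 23 were lower in control cells and 24 in fld cells, with 0 higher. Lipa, the acid lipase of lysosomes, fell by 3.11 and 2.74 log2 units, and Lgmn, the asparagine endopeptidase legumain, by 1.72 and 1.56. Of 21 further membrane proteins 12 and 16 were lower and 1 in each was higher: the cholesterol exporter Npc1 differed by -1.30 and -0.99, while the channel Mcoln2, a relative of Mcoln1, was higher by 1.97 and 1.89.

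Of 6 genes of enzyme sorting, which encode receptors and the enzymes that make or uncover the sugar tag those receptors bind, 2 were lower in control cells, and 4 were lower and 1 higher in fld cells. The receptors Sort1 and Igf2r stood at -2.45 and -2.54 and at -0.88 in both genotypes, and the uncovering enzyme Nagpa was the higher one in fld cells (0.35, adjusted p = 0.0498, limma). Of 14 other pump subunits 4 were lower in each genotype, among them Tcirg1 at -0.90 and -1.04. Of 35 other autophagy genes 10 were lower and 8 higher in control cells, 11 and 7 in fld cells. The cargo receptor relative Calcoco1 differed by -1.45 and -1.62, whereas the receptor Tax1bp1 was higher by 1.35 and 1.11 and Wipi2, a relative of Wipi1, by 1.04 and 1.34. Among 18 regulators 3 were lower and 1 was higher in control cells (Rraga, 0.50), and 6 were lower in fld cells, beside the 15.2% and 18.2% lower over all features. They included Mitf, a relative of Tfeb, at -0.81 and -1.09. The 4 cystatins, inhibitors of cysteine cathepsins, gave 0 calls. Between genotypes with LPS 2 of the 131 were called, Mcoln3 lower in fld (-1.14) and Ulk2 higher (0.68). In that comparison 17.1% of all features were called.

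Marker genes of several cell types were read, and a marker's level gives no count of cells. All 8 macrophage markers were measured, and their summed linear level, in units of the array's 75th percentile, was 710 to 866 on untreated control, 555 to 830 on LPS control, 805 to 883 on untreated fld and 684 to 954 on LPS fld arrays. Of these 8, 1 was called lower with LPS in control cells (Csf1r, the receptor of the macrophage growth factor, at -1.71) and 4 in fld cells (Csf1r -2.43, Adgre1 -1.49, Timd4 -2.34 and Fcgr1 -1.40), while Lyz2 fitted at 0.14 and 0.30. The 6 B cell markers summed to 347 to 551, 357 to 399.5, 355 to 468 and 269 to 407 in the same order, so B cell markers were measured in every group. The 5 T cell markers summed to between 3.94 and 6.95 on the 16 arrays. Of 5 neutrophil markers 3 were measured, at 1.11 to 2.17, 8.95 to 15.8, 1.04 to 1.43 and 18.8 to 26.6 while Ngp and Ltf were not kept. The 6 mast cell markers summed to 15.3 to 82.2, 66.9 to 130.3, 33.6 to 123.6 and 43.8 to 130.6, 1 of 4 eosinophil, 4 of 4 dendritic cell and 6 of 7 mesothelial or fibroblast markers were measured, and the part of any cell type in the members' changes was not tested.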

How the data were processed

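RNA of 16 samples was hybridised to single-colour arrays. The authors' processed intensity was read, per the file headers, by Agilent Feature Extraction 9.5.1.1. The authors' deposited value table is a ratio, each processed intensity divided by its array's median (equal within 0.001 for all spots compared), and served as an alternative. Groups came from the sample labels.

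Processed intensity was taken to log2, each array's 75th percentile over spots that are not controls was subtracted, outlier spots (0.208%) were set to missing, and spots of a probe were averaged. Of 41174 probes 25535 were kept, and the brightest kept probe stood for a gene. Names came through a RefSeq table of assembly GRCm38.p6, by accession for 22944 probes, by symbol for 6664 and by synonym for 3108, and 8458 kept the name in the files. limma 3.58.1 in R 4.3.3 fitted 1 mean per group over 16 arrays (lmFit, eBayes), with Benjamini-Hochberg adjustment over all features in each of 5 comparisons, and the code was tested on simulated data. Probe p-values come from the same fit over kept probes. The number of arrays limits the precision.

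The members and all lists were chosen with earlier results of these data known. Array values are printed for Lamp1, Ctsd, Tfeb, Sqstm1, Map1lc3b, Atp6v0d2, for up to 2 called falls and 1 called rise without overlap in a role, for genotype calls, and for genes whose probes differ; those of Ctsk, Gla, Ctsc and Wipi1 were added after their values were seen. Alternatives were other background corrections, scalings, filters, the mean of a gene's probes, the replicate number as a block, and leaving out arrays.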

Additional observations from a re-analysis of the deposited data

Results flagged for a closer look

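Among 176 sets of 4 arrays (44 genes in 4 groups), 12 held an array far from the other 3 by Dixon's ratio, the gap to the nearest array over the whole range (95% critical value for 4 arrays). Chance gives about 1 in 20 such sets. On untreated fld arrays replicate 2 was high for Ctsd (ratio 0.894), Naglu (0.9), Asah1 (0.886) and Atg5 (0.871), and replicate 4 was low for Ctsz (0.843). On LPS fld arrays replicate 4 was low for Ctsz (0.839) and replicate 3 was high for Manba (0.902). On control arrays the untreated replicate 2 was high for Gusb (0.843), the untreated replicate 4 was low for Mcoln1 (0.836) and Map1lc3b (0.832), the LPS replicate 3 was high for Manba (0.831) and the LPS replicate 2 was low for Neu1 (0.91). Leaving out untreated fld replicate 2 took the fld LPS count from 30 to 20 lower. Over all features the share lower went from 18.2% to 14.8%. The calls of Arsb, Atg5, Atp6ap1, Ctsf, Ctsz, Glb1, Man2b1, Mcoln1, Tfeb and Ulk1 ended. The source of these gaps was not tested.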

How the results depend on the processing

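Of the 44 genes 24 and 30 were lower with LPS in control and fld cells (15.2% and 18.2% of all features). Normexp background correction gave 13 and 16, and over all features it called 509 higher and 621 lower in control cells, 598 and 794 in fld cells, and 0 between genotypes. Normexp ended the control calls of Atg7, Atp6v0d1, Ctsa, Ctsl, Gaa, Lamp1, Mcoln1, Ppt1, Smpd1, Tfeb and Tpp1. In fld cells normexp ended those of Arsb, Atg5, Atg7, Atp6ap1, Ctsh, Ctsz, Glb1, Lamp1, Man2b1, Mcoln1, Smpd1, Tfeb, Tpp1 and Ulk1. With extreme local backgrounds capped it gave 23 and 32 (11.7% and 15.7% of all features). It then gave 1 gene (Asah1) lower in fld with LPS (0.836% of all features), and the cause was not tested. Quantile normalization gave 29 and 31 (15.7% and 21.2% of all features). The value table gave 18 and 34 (12.2% and 27.1% of all features), and 22 genes lower in fld with LPS (37.9% of all features) beside an all-feature median of -0.38; its medians were -0.18 for LPS in fld cells, -0.12 for untreated genotypes and -0.22 for the interaction. No filter gave 24 and 28 (8.14% and 10.5% of all features). Its all-feature medians were 0.12 and 0.31 for LPS in control and fld cells (normexp 0.16 and 0.20). They were 0.11 and 0.28 between genotypes without and with LPS and 0.13 for the interaction. The strict filter gave 25 and 29 (15.6% and 18.9% of all features). The mean of a gene's probes gave 24 and 28 (15.1% and 17.3% of all features). It turned Grn in fld cells to -0.52 (adjusted p = 0.0117, limma).

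Of all features called for LPS in fld cells 54.7% were higher, against 67.2% with capped normexp, 65.2% without a filter, 43.0% with normexp and 29.6% in the value table; of those called between untreated genotypes 95.8% were higher, against 85.3% in the value table. Equal replicate numbers did not meet the rule for pairing, that every correlation of same-numbered deviations exceed 0.1: these were 0.0838 to 0.257 between untreated and LPS arrays in control cells and -0.102 to 0.204 in fld cells, and the labels do not say whether a number marks 1 mouse. With the replicate block the counts were 26 lower and 1 higher (Map1lc3b) in control cells, beside 15.3% and 15.4% of all features. In fld cells 30 were lower, beside 18.5% of all features, and Ulk1 was lost. The control call of Ctsa was lost under 9 of 25 alternatives and that of Tfeb under 6. Leaving out 1 array gave 19 to 28 lower and 0 to 1 higher in control cells and 20 to 31 lower and 0 to 1 higher in fld cells. Over all features 12.2% to 17% were then lower in control cells and 14.8% to 18.8% in fld cells. In fld against control with LPS it gave 0 to 3 lower and 0 to 1 higher. The all-feature shares there were 0.355% to 1.36% lower and 11.8% to 17.6% higher. Without both fld arrays of number 4 control cells gave 28 lower and 2 higher, beside 16.8% lower and 16.8% higher over all features. Cells labelled fld then gave 22 lower, beside 14.7% of all features. Between genotypes 0.338% of all features were then lower and 6.13% higher in fld without LPS, 0.538% and 12.8% with LPS. Member counts between genotypes are not given for that setting. Dim probes limit Ctsk, Atp6v0d2 and Arsb.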

Other observations

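The members also moved together within groups. Untreated control replicate 4 held the lowest value of its group for 31 of the 44 genes and 18 of the 23 hydrolases, with a median of -0.30 against the mean of the other 3 arrays over the members and -0.01 over all features. Untreated fld replicate 2 was lowest for 0 of the 44 genes, with a median of 0.23 over the members, 0.34 over the hydrolases and -0.03 over all features. LPS fld replicates 1 and 3 gave medians of 0.36 and 0.35 over the members. These differences between replicates are of the size of the smaller LPS changes and are given as values only.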
